A study of Mus musculus with 12 samples.

Results

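The comparison set untreated B16F10 cells in which Bub1 was disrupted by CRISPR-Cas9 (Bub1KO, 3 libraries) against untreated vector-control cells of the same line (VC, 3 libraries). B16F10 is a mouse melanoma cell line that makes pigment. All 6 libraries were chosen by their genotype and treatment labels, out of 12 in the series, whose other 6 hold the same pair of lines after 8 Gy of radiation. All groups share the melanoma background and the same medium, and no untreated library received radiation. Of 55421 genes in the table, the 14721 with a normalized count of 10 or more in 3 or more of the 12 libraries were tested, whatever their change. A normalized count is the number of reads of a gene divided by the size factor of its library. Neither the guide sequence nor whether the Bub1KO cells are 1 clone or a pool is given in the sources used here, so a difference between the lines that arose apart from the disruption cannot be told apart from an effect of losing Bub1.

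The untreated libraries held 19380726 to 30265326 reads in genes. Bub1KO replicate 1 stood apart by its base composition: the log2 gap between its GC-rich and GC-poor genes was -0.77. The gap was -0.14, -0.39 and -0.21 in the VC libraries and 0.037 and 0.090 in Bub1KO replicates 2 and 3. In fits without Bub1KO replicate 1, a difference in this gap therefore cannot be told apart from the difference between the lines. Summed over 8 pigment cell markers, normalized counts were 400055 to 416932 in VC and 556396.5 to 565188 in Bub1KO, and all 8 were detected in every library. Summed markers of leukocytes lay at 35.3 to 39.0 in VC and 32.9 to 40.0 in Bub1KO, with Adgre1, Cd3e, H2-Aa and H2-Ab1 at 0 in all 12 libraries. Those of fibroblasts and endothelium lay at 215 to 271 and 197 to 228, and those of keratinocytes and epithelium at 57.2 to 78.7 and 76.9 to 97.6, with Krt1, Krt10, Krt18, Dsg1a and Cldn4 at 0. The part of such cells in the results was not tested. Whether the libraries of 1 group were grown as separate cultures is not labelled, so p-values speak only to the spread among these samples, which may be technical.

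Bub1 encodes a kinase that sits on kinetochores during mitosis, where it recruits other proteins of the spindle assembly checkpoint and phosphorylates histone H2A to bring shugoshin and Aurora B to the centromere. In growing cells its transcript rises towards mitosis together with those of cyclin B and the other mitotic regulators. Several signalling programs known to shape melanoma cells were read beside it: the Atf4 stress response to restrained translation or scarce amino acids, the RAS-RAF-ERK pathway, the YAP pathway that senses tension and cell contact, and the pigment program under Mitf.

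Bub1 itself (ENSMUSG00000027379.13, GRCm38 chr2:127801122-127831865) was at 2752, 3185 and 2859 in the VC libraries and 1834, 1565 and 1588 in the Bub1KO libraries. Every Bub1KO library lay below every VC library, and the mean was 1.76-fold lower (log2 difference -0.82, SE 0.10, limma adjusted p = 0.003). A short insertion or deletion need not remove a transcript, and the counts are not split by exon, so they do not show whether the protein was lost.

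Across the transcriptome 591 genes differed between the lines (4.01% of those tested, limma adjusted p under 0.05), of which 340 were higher in Bub1KO (2.31%) and 251 lower (1.71%). At least 2-fold changes were found for 128 of the higher and 88 of the lower genes (together 1.47% of those tested), and at least 4-fold changes for 22 and 31. For all 591 the groups did not overlap, which was also so for 25.6% of all genes tested. Over all 14721 genes the median log2 difference was -0.0084. Without Bub1KO replicate 1, 2736 genes passed (18.6%; 1499 higher, 10.2%, and 1237 lower, 8.40%), and all 591 were among them. In that fit every Bub1KO library had a higher GC gap than every VC library, and its part in this and the later counts without Bub1KO replicate 1 was not tested. Those later counts stand beside 10.2% higher and 8.40% lower over all genes tested. Without VC replicate 1, 2 or 3 the count was 185, 172 or 242, and without Bub1KO replicate 2 or 3 it was 301 or 298. A total of 152 genes, 100 higher and 52 lower, passed in each of the 6 fits with 1 library left out. Without a filter on low counts 329 genes passed. Below, a call is said to be lost where it ended in any of these fits, with the largest adjusted p. In bulk RNA, fewer cells of a type and less RNA per cell cannot be told apart.

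The plot of gene lists shows where these genes fell. The lists and their members were chosen with earlier results of these data known, so their shares may partly follow from that choice. Genes of the Atf4 response, of the response to low oxygen and of amino acid synthesis held the largest shares of higher genes, and genes of ERK output and of the YAP and contractile program the largest shares of lower genes. Lists of mitosis, the spindle checkpoint and DNA replication held no called gene. With 4.01% of all genes tested called, lists of this size would hold few calls in any case.

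**Figure D1:**
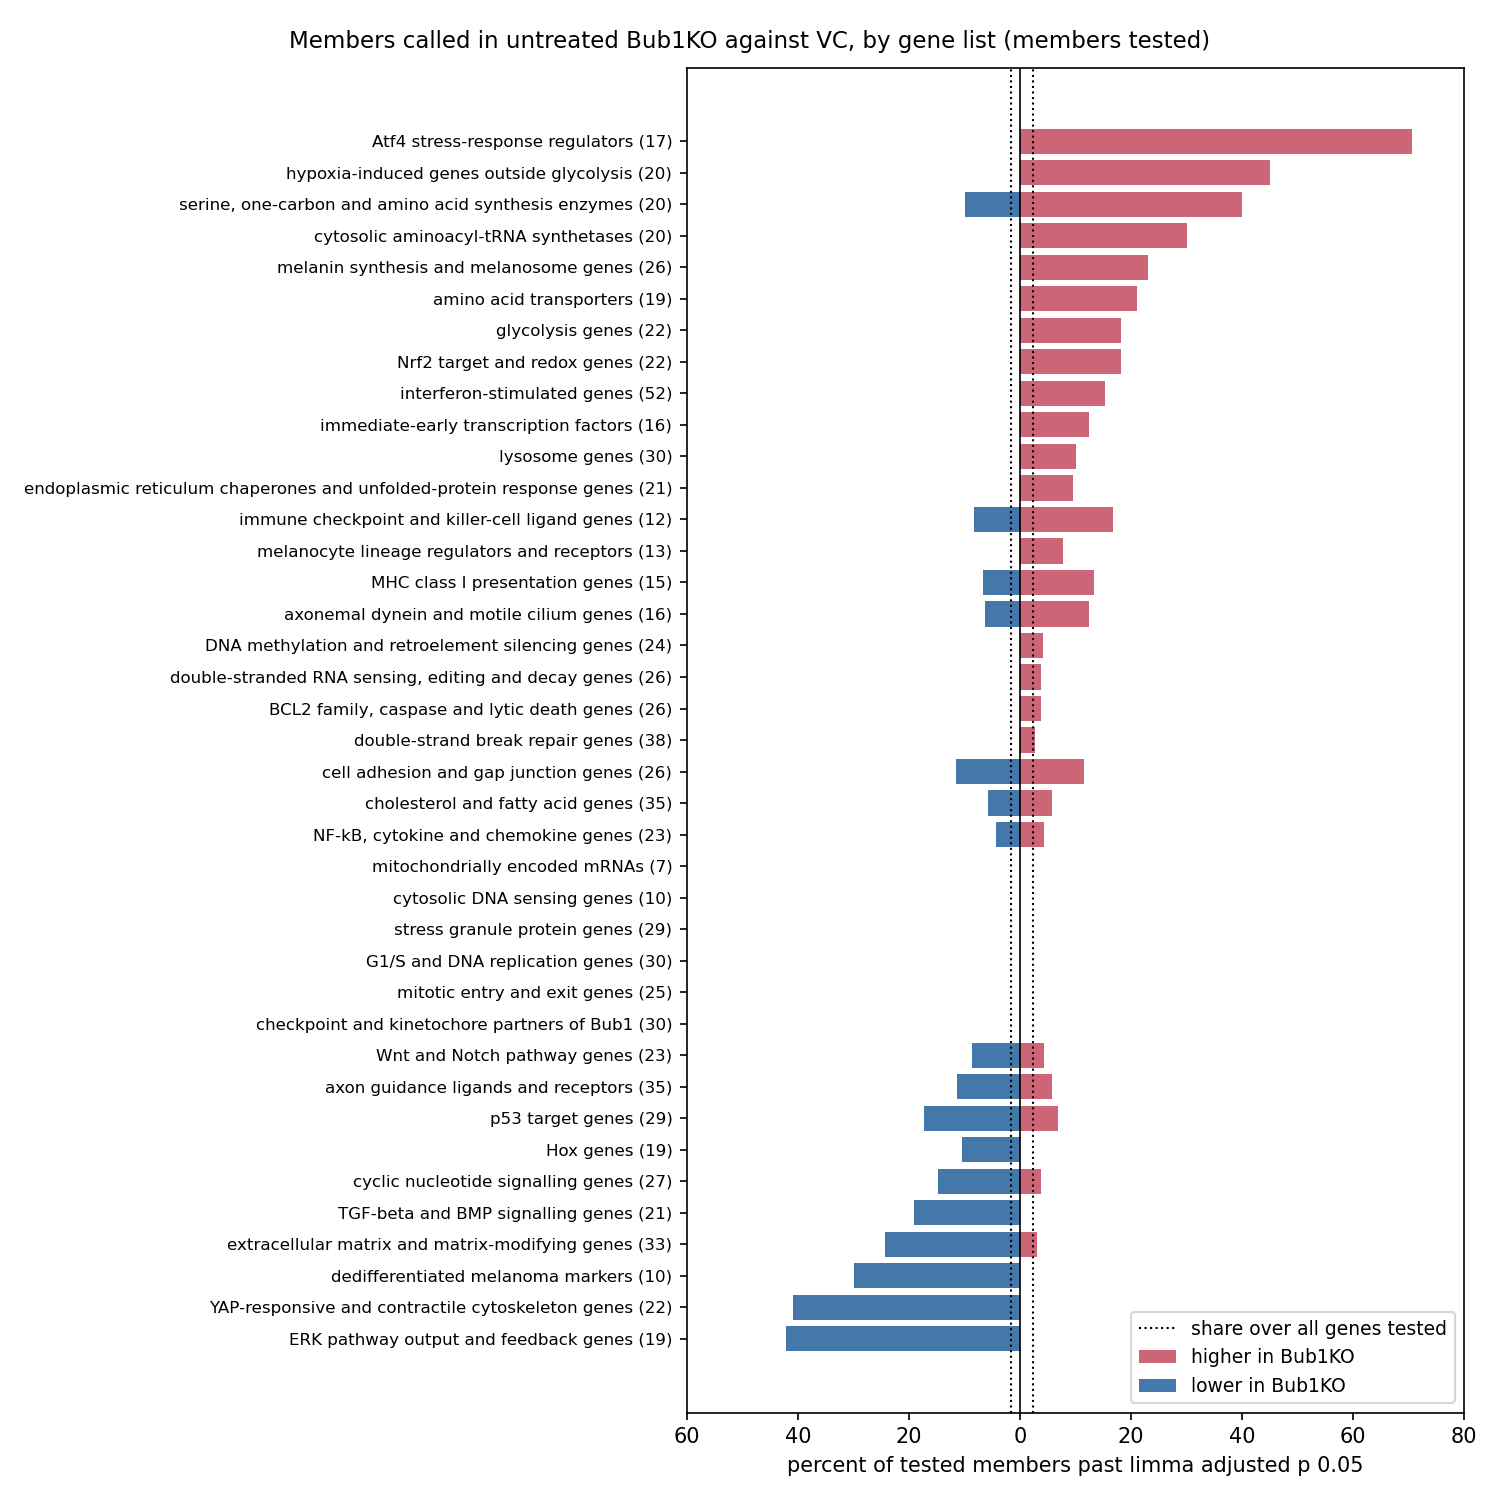
Share of each gene list called higher (red, to the right) or lower (blue, to the left) in untreated Bub1KO against VC, with a limma adjusted p under 0.05, in percent of the tested members given in brackets. Dotted lines mark the shares over all genes tested, 2.31% higher and 1.71% lower. The list of Atf4 regulators has 12 of 17 members higher and that of ERK output 8 of 19 lower. Lists were chosen with earlier results of these data known.

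Most tested transcripts of the Atf4 response were higher in untreated Bub1KO. Atf4 is a transcription factor whose own mRNA is translated better when initiation is restrained by phosphorylated eIF2. Of 17 tested regulators 12 rose, 0 fell and the other 5 missed the threshold, and their median log2 difference was 1.10. Atf4 was at 7155, 7263 and 8125 in the VC libraries and 12661, 15659 and 14741 in the Bub1KO libraries (log2 difference 0.93, SE 0.10, limma adjusted p = 0.00183). Every Bub1KO library exceeded every VC library. Among the factors that act with or below it, Atf3, Atf5, Cebpg, Cebpb, Jdp2 and Ddit3 all rose. Ddit3, which encodes the stress factor CHOP, was at 283, 255 and 286 in the VC libraries and 522, 1010.2 and 869 in the Bub1KO libraries (log2 difference 1.49, SE 0.22, limma adjusted p = 0.00645), and its call was lost without VC replicate 2 (limma adjusted p = 0.0558) and without a filter (limma adjusted p = 0.124). The calls of Cebpb and Jdp2 were lost in 3 and 5 of the 6 fits with 1 library left out (largest limma adjusted p 0.11 and 0.145).

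The steepest rises were in genes that feed back on the response or carry it out. Trib3, a pseudokinase that restrains Atf4 (GRCm38 chr2:152337422-152344032), was at 270.2, 264 and 279.7 in the VC libraries and 1329, 3159 and 2295 in the Bub1KO libraries. The VC libraries lay within a narrow band of each other, and Bub1KO replicate 1 was the lowest of its group, still far above them (log2 difference 2.97, SE 0.26, limma adjusted p = 0.000517). Chac1, an enzyme that breaks down glutathione (GRCm38 chr2:119351229-119354381), was at 153, 151 and 154 in the VC libraries and 618, 1476 and 1297 in the Bub1KO libraries, with the same order of the Bub1KO libraries (log2 difference 2.78, SE 0.28, limma adjusted p = 0.00098). Nupr1, a small chromatin-associated stress protein, was at 123, 91.6 and 132 in the VC libraries and 497, 911 and 669.7 in the Bub1KO libraries (log2 difference 2.54, SE 0.22, limma adjusted p = 0.000517). Ddit4 and Sesn2, which both restrain the growth kinase mTORC1, rose 2.37-fold and 2.17-fold in mean (limma adjusted p = 0.000517 and 0.00692). The kinases that phosphorylate eIF2 did not pass, with log2 differences of -0.046 (Eif2ak1), -0.038 (Eif2ak3), 0.12 (Eif2ak4) and -0.059 (Eif2ak2). The list held 14 higher members without Bub1KO replicate 1 and 9 to 11 without any 1 of the others, and the calls of Chac1 and Sesn2 were lost without a filter (limma adjusted p = 0.0623 and 0.115).

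Genes that make, import and charge amino acids also rose in part. Of 20 enzymes of serine, one-carbon and amino acid synthesis 8 rose, 2 fell and the other 10 missed the threshold. Asns, asparagine synthetase (GRCm38 chr6:7675169-7693254), was at 4223, 4023 and 4557 in the VC libraries and 8508, 8972 and 7630.4 in the Bub1KO libraries (log2 difference 0.97, SE 0.095, limma adjusted p = 0.000891). Mthfd2, a mitochondrial enzyme of the folate cycle, was at 5064, 4965 and 5267 in the VC libraries and 9159.8, 10930.2 and 9182 in the Bub1KO libraries (log2 difference 0.93, SE 0.10, limma adjusted p = 0.00114). In both genes the 3 Bub1KO libraries lay close together and above every VC library, replicate 1 included. Gpt2, Aldh18a1, Pck2, Psph, Pycr1 and Aldh1l2 rose too, while Cbs, of cysteine synthesis, fell. Those calls were lost with 1 library left out for Pck2, Psph, Pycr1, Aldh1l2 and Cbs (largest limma adjusted p 0.136) and without a filter for Gpt2 and Aldh18a1 (largest limma adjusted p 0.074). Phgdh, the first enzyme of serine synthesis, was at 6008 ± 195 in VC and 6443 ± 1684 in Bub1KO (SD, n = 3) and did not pass (limma adjusted p = 0.889).

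Among 19 amino acid transporters 4 rose, 0 fell and the other 15 missed the threshold. Slc1a4, a carrier of alanine, serine and cysteine, was at 705, 726 and 755 in the VC libraries and 1728, 2265 and 1817 in the Bub1KO libraries (log2 difference 1.40, SE 0.12, limma adjusted p = 0.000485). The cystine carrier Slc7a11 and its partner chain Slc3a2 rose, as did Slc38a7, and all 3 calls were lost without any 1 VC library (largest limma adjusted p 0.169). Of 20 cytosolic tRNA synthetases, which load amino acids onto tRNA, 6 rose, 0 fell and the other 14 missed the threshold. Cars, the cysteine enzyme, was at 2696, 2644 and 2924 in the VC libraries and 4879.7, 5574 and 5023 in the Bub1KO libraries (log2 difference 0.90, SE 0.090, limma adjusted p = 0.000982). The other 5 that rose, Gars, Lars, Nars, Sars and Tars, had log2 differences of 0.43 to 0.72, and each call was lost with 1 library left out (largest limma adjusted p 0.202). The 3 lists held 11, 9 and 12 higher members without Bub1KO replicate 1, and without any 1 of the others 4 to 7, 1 to 2 and 1 to 5. Chaperones and other genes of the unfolded-protein response in the endoplasmic reticulum gave few calls. Of 21 tested, 2 rose, 0 fell and the other 19 missed the threshold. The risers were Herpud1 (0.98, limma adjusted p = 0.000936) and Atf6 (0.64, limma adjusted p = 0.00645, and 0.0563 without VC replicate 1), whereas the chaperone Hspa5 was at 36295 ± 1742 in VC and 36747 ± 6669 in Bub1KO (SD, n = 3).

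Promoters of these genes (250 bases before to 50 after the start, RefSeq, GRCm38.p6) were searched on both strands for TGATGNAA, the core of the C/EBP-ATF response element to which Atf4 binds with a C/EBP partner. Of 26 called higher members of the Atf4, amino acid and tRNA synthetase lists with a promoter in the table, 12 held it (46.2%), as did 17 of 60 tested members of these lists whether called or not (28.3%), against 273 of all 10096 tested genes with a promoter (2.70%), 28 of 255 genes called higher (11%) and 3 of 193 called lower (1.55%). The sites of the genes with values above are shown to let their shared core be compared, each as 30 bases read along the strand of the match, with the core in capitals.
Asns, chr6:7693214-7693243, minus strand: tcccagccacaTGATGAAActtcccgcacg
Atf3, chr1:191183425-191183454, plus strand: cgcggacttggTGATGCAAgtgcgagaagg
Chac1, chr2:119351038-119351067, minus strand: cctggcaggagTGATGCAAcggcagggaag
Nupr1, chr7:126625562-126625591, plus strand: caagccctgtcTGATGCAAtctggcccttt
Slc1a4, chr11:20332699-20332728, plus strand: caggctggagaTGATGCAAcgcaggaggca
Trib3, chr2:152344028-152344057, plus strand: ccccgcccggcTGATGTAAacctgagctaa
The cores of Atf3, Chac1, Nupr1 and Slc1a4 share TGATGCAA. That of Asns reads TGATGAAA and that of Trib3 TGATGTAA. Read along the gene from the RefSeq start, the match begins 23 bases before the start of Asns, 4 before that of Slc1a4, 110 before those of Nupr1 and Atf3, 193 before that of Chac1 and at base 15 of the Trib3 transcript. The gene positions given above are from GENCODE and can have another start. By them the Asns match lies inside the gene and the Trib3 match outside it. A match describes the sequence only, and binding was not measured.

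Several genes that read out ERK signalling were lower in untreated Bub1KO. When ERK is active it induces its own brakes, the Dusp phosphatases and the Sprouty and Spred proteins, along with ETS transcription factors and cyclin D1. Of 19 such genes 0 rose, 8 fell and the other 11 missed the threshold, and their median log2 difference was -0.74. Dusp6, the phosphatase that inactivates ERK in the cytoplasm (GRCm38 chr10:99263231-99267489), was at 1154, 1174 and 1114 in the VC libraries and 638, 531 and 467 in the Bub1KO libraries (log2 difference -1.08, SE 0.12, limma adjusted p = 0.00206). Spry4 was at 43.9, 47.7 and 73.1 in the VC libraries and 10.2, 12.3 and 15.8 in the Bub1KO libraries (log2 difference -2.01, SE 0.28, limma adjusted p = 0.00517). The highest Bub1KO value stayed under the lowest VC value in both. The related brakes Spry2 and Spred2 fell by 0.74 and 0.78 on the log2 scale (limma adjusted p = 0.0126 and 0.00415).

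Of the ETS factor genes, Etv4 and Etv5 had the largest drops of the list, while Etv1 (-0.70) did not pass. Etv4 (GRCm38 chr11:101769742-101785371) was at 65.5, 59.3 and 68.0 in the VC libraries and 11.2, 10.7 and 12.6 in the Bub1KO libraries (log2 difference -2.39, SE 0.21, limma adjusted p = 0.000517). Etv5 (GRCm38 chr16:22381309-22439719) was at 399, 442 and 445 in the VC libraries and 105, 56.8 and 68.4 in the Bub1KO libraries (log2 difference -2.51, SE 0.21, limma adjusted p = 0.000485). Both means were 5.59-fold lower, and Bub1KO replicate 1 held the highest Etv5 value of its group, still far below VC. Ccnd1, cyclin D1, was at 6331, 6070.3 and 6305 in the VC libraries and 3443, 3181 and 3064 in the Bub1KO libraries (log2 difference -0.95, SE 0.084, limma adjusted p = 0.000517), and Myc at 1783, 1727 and 1794 in the VC libraries and 1158, 1272 and 1327 in the Bub1KO libraries (log2 difference -0.50, SE 0.090, limma adjusted p = 0.0173). The Myc call was lost without Bub1KO replicate 2, without any 1 VC library and with the replicate block (largest limma adjusted p 0.115). That of Spry2 was lost in 3 of the 6 fits with 1 library left out (largest limma adjusted p 0.082), while the other 6 genes passed in all of them. Members that did not pass included Egr1 (-0.98), Fos (-0.63), Epha2 (-1.21), Dusp4 (-0.091) and Phlda1 (0.36). There were 11 lower and 1 higher without Bub1KO replicate 1, and without any 1 of the others 6 to 8 lower.

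**Figure D2:**
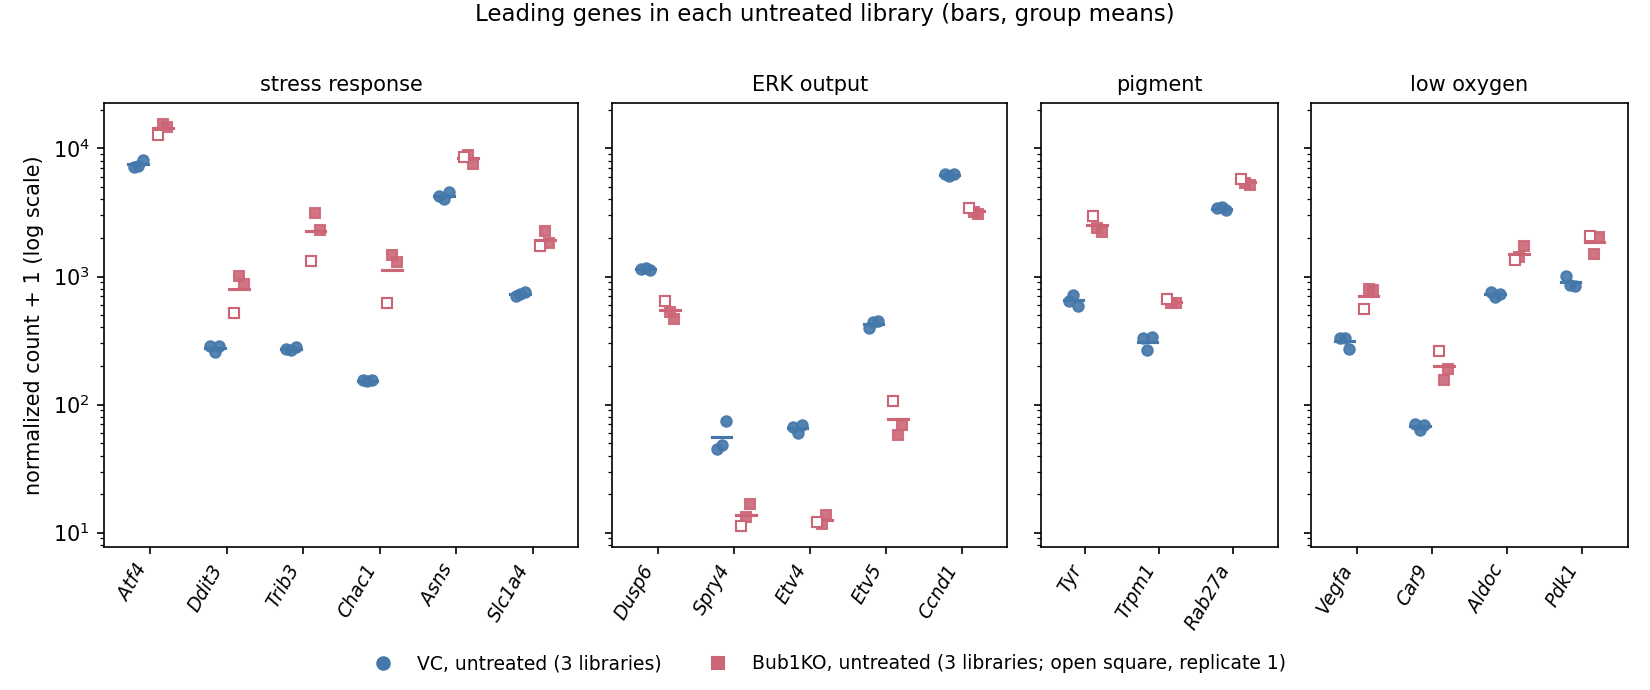
Normalized count plus 1 on a log axis for genes of 4 programs, 1 marker per untreated library (blue circles, VC; red squares, Bub1KO, with replicate 1 as an open square), bars at the group means. In every gene shown the 3 Bub1KO libraries lie on one side of the 3 VC libraries, above for the stress, pigment and low-oxygen genes and below for the ERK genes.

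Several genes that respond to YAP or build the contractile cytoskeleton were lower in untreated Bub1KO. YAP and its partner TAZ enter the nucleus in spread or stretched cells and act there through TEAD factors. Of 22 tested members 0 rose, 9 fell and the other 13 missed the threshold, the median was -0.46, and in 19 of them all Bub1KO libraries lay below all VC libraries (against 12.9% of all genes tested). Ccn2, a secreted matrix protein that is a standard readout of YAP, was at 178, 151 and 163 in the VC libraries and 68.1, 51.8 and 57.9 in the Bub1KO libraries (log2 difference -1.46, SE 0.16, limma adjusted p = 0.0018). Its relative Ccn1 was at 749, 869 and 751 in the VC libraries and 416, 451 and 451 in the Bub1KO libraries (log2 difference -0.84, SE 0.11, limma adjusted p = 0.00341). Tagln2, an actin-binding protein, was at 1559.9, 1584 and 1750.2 in the VC libraries and 463, 628 and 664 in the Bub1KO libraries (log2 difference -1.49, SE 0.14, limma adjusted p = 0.000781). In all 3 the groups lay well apart, and they passed with any 1 library left out. Vcl (vinculin), Ajuba, Lats2, Crim1 and Tpm2 fell too, each with a call that was lost with 1 library left out (largest limma adjusted p 0.191). Mtus1 is described below. Yap1 (-0.21), Wwtr1 (0.042) and Tead1 (-0.44) did not pass. The lower members numbered 16 without Bub1KO replicate 1 and 4 to 6 without any 1 of the others. The TEAD core CATTCC, on either strand, stood in 6 of 7 promoters of called members and in 12 of 19 of all tested members (63.2%), against 14.3% of those of all tested genes and 15.5% of those of all genes called lower.

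Matrix genes gave a mixed picture. Of 33 tested, 1 rose, 8 fell and the other 24 missed the threshold (median -0.18). Fn1, fibronectin, was at 1058, 1154 and 1063 in the VC libraries and 523, 585 and 458 in the Bub1KO libraries (log2 difference -1.07, SE 0.11, limma adjusted p = 0.00149), and the metalloproteases Adam12 and Adamts1 fell by 2.51 and 0.90 on the log2 scale. The list held 5 higher and 9 lower members without Bub1KO replicate 1, and 0 higher and 4 to 5 lower without any 1 of the others. The member that rose, Postn, passed in 1 of the 6 fits with 1 library left out (largest limma adjusted p 0.195). Hapln1, Sparc, Thbs1, Timp2 and Lamb1 fell as well, the last 4 with calls lost with 1 library left out (largest limma adjusted p 0.159). The tested collagen genes did not pass, with log2 differences of 0.063 for Col1a1, -0.041 for Col4a1 and -2.03 for Col6a1, the last from 4.14, 2.58 and 12.6 in the VC libraries and 1.02, 0.823 and 0 in the Bub1KO libraries. Of 21 genes of TGF-beta and BMP signalling 0 rose, 4 fell and the other 17 missed the threshold. Pmepa1, a feedback inhibitor of TGF-beta signalling, was at 184, 175 and 222 in the VC libraries and 94.5, 87.2 and 93.7 in the Bub1KO libraries (log2 difference -1.06, SE 0.15, limma adjusted p = 0.00512). The BMP antagonist gene Nog had 48 reads over the VC libraries and 1 read over the Bub1KO libraries, a ratio of 54.5 (95% exact interval 9.32 to 2195, counting error only). Tgfb2 and Smad7 also fell, with calls lost without any 1 VC library (largest limma adjusted p 0.16 and 0.0814).

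Several genes known to be induced by low oxygen were higher in Bub1KO. The growth protocol in the labels is the same for both lines. Of 20 such genes outside glycolysis 9 rose, 0 fell and the other 11 missed the threshold, and the median was 0.44. Vegfa, the angiogenic growth factor (GRCm38 chr17:46016993-46032369), was at 329.9, 330.2 and 269.6 in the VC libraries and 554, 798 and 777 in the Bub1KO libraries (log2 difference 1.18, SE 0.16, limma adjusted p = 0.00492). Car9, a carbonic anhydrase of the cell surface (GRCm38 chr4:43506966-43513729), was at 69.6, 61.9 and 68.0 in the VC libraries and 261, 154 and 187 in the Bub1KO libraries (log2 difference 1.55, SE 0.20, limma adjusted p = 0.00401). Replicate 1 was the lowest Bub1KO library for Vegfa and the highest for Car9. Bnip3, a receptor for the removal of mitochondria, was at 665, 482 and 554 in the VC libraries and 1778, 994 and 1458 in the Bub1KO libraries (log2 difference 1.28, SE 0.20, limma adjusted p = 0.0096), and its call was lost without a filter and without VC replicate 2 or 3 (largest limma adjusted p 0.15). Ndufa4l2, Mxi1, Ndrg1, Egln1, Plin2 and Rora rose too, with log2 differences from 0.42 to 2.87, and each lost its call with 1 library left out (largest limma adjusted p 0.206). Transcripts of the oxygen-regulated factors themselves did not pass, with Hif1a at -0.22 and Epas1 at 0.0089.

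In glycolysis, 4 of 22 genes rose and 0 fell (median 0.18). Aldoc, an aldolase, was at 756, 694 and 727 in the VC libraries and 1346, 1432 and 1726 in the Bub1KO libraries (log2 difference 1.04, SE 0.11, limma adjusted p = 0.00161). Pdk1, a kinase that restrains the use of pyruvate within mitochondria, was at 1007, 853 and 843 in the VC libraries and 2088, 1505 and 2024 in the Bub1KO libraries (log2 difference 1.04, SE 0.14, limma adjusted p = 0.00468). Pfkp and the lactate carrier Slc16a3 rose as well, with calls lost in some of the fits with 1 library left out (largest limma adjusted p 0.11). Enzymes that did not pass included Ldha at 0.10, Gapdh at 0.12 and Pkm at 0.14. The log2 difference was above 0 in 17 of the 22 genes and below 0 in 5. An unadjusted limma p under 0.05 was found for 10, against 2817 of all 14721 genes tested. In the fit without Bub1KO replicate 1, 11 genes of the low-oxygen list and 12 of glycolysis were higher, against 10.2% of all genes tested in that fit. Without any 1 of the others 2 to 7 and 2 to 3 were higher. The calls of Vegfa, Car9 and Pdk1 were lost without a filter (limma adjusted p = 0.0881, 0.0698 and 0.0876).

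Some pigment genes, Tyr the most, were higher in untreated Bub1KO. Melanocytes make melanin in melanosomes, with tyrosinase as the first enzyme and Mitf as the main transcription factor. Of 26 melanin and melanosome genes 6 rose, 0 fell and the other 20 missed the threshold (median 0.23). Tyr (GRCm38 chr7:87424771-87493512) was at 644, 713 and 592 in the VC libraries and 2946, 2406 and 2219 in the Bub1KO libraries, and every Bub1KO library was far above the highest VC library (log2 difference 1.95, SE 0.13, limma adjusted p = 0.000147). Trpm1, an ion channel of melanocytes, was at 327, 266 and 335 in the VC libraries and 667, 623 and 620.3 in the Bub1KO libraries (log2 difference 1.05, SE 0.12, limma adjusted p = 0.0022). Rab27a, which ties melanosomes to actin motors, was at 3401, 3469.9 and 3309 in the VC libraries and 5805, 5423 and 5149 in the Bub1KO libraries (log2 difference 0.68, SE 0.084, limma adjusted p = 0.00289). Bace2, a protease that trims the melanosome matrix protein, rose 1.62-fold, Dct 1.62-fold and Slc24a5 1.48-fold in mean, the last 2 with calls lost with 1 library left out (largest limma adjusted p 0.095 and 0.0845). The list held 11 higher and 1 lower members without Bub1KO replicate 1, and without any 1 of the others 4 to 6 higher.

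Of 13 lineage regulators and receptors 1 rose, 0 fell and the other 12 missed the threshold. The riser was Cited1, a cofactor, which passed in 1 of the 6 fits with 1 library left out (largest limma adjusted p 0.213) and did not pass by edgeR. Mitf was at 10704, 10802 and 9977 in the VC libraries and 13345, 12590.2 and 11575 in the Bub1KO libraries and did not pass (limma adjusted p = 0.166), and Sox10 was at 6266 ± 621 in VC and 6919 ± 2223 in Bub1KO (SD, n = 3). Of 10 markers of dedifferentiated melanoma 0 rose, 3 fell and the other 7 missed the threshold. They were the growth factor receptor genes Ngfr (27.4, 23.2 and 31.5 in the VC libraries and 3.05, 6.58 and 5.27 in the Bub1KO libraries, limma adjusted p = 0.00624) and Pdgfrb (36 reads in VC and 5 in Bub1KO, ratio 8.17, 95% exact interval 3.19 to 26.7, counting error only) and the factor Tcf4 (-0.46, limma adjusted p = 0.0314). Lost calls were those of Ngfr without a filter (limma adjusted p = 0.0698), of Pdgfrb when VC replicate 1 was left out (limma adjusted p = 0.06) and of Tcf4 in 5 of the 6 fits with 1 library left out (largest limma adjusted p 0.159). The log2 difference was above 0 in 2 of the 10 markers, Sox9 (1.19) and Aqp1 (0.23), neither of which passed. By DESeq2 1 marker was called higher and 3 lower.

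Promoters of 5 called pigment genes were in the table, and 4 held TCATGTG on either strand, the core of the M-box that Mitf binds (80%, against 2.81% of tested genes with a promoter, 7 of all 20 tested members, and 6.27% of all genes called higher). The sites of those 4 are printed, as above, so that they can be compared.
Tyr, chr7:87493516-87493545, minus strand: gaaaaagttagTCATGTGctttgcagaaga
Trpm1, chr7:64153682-64153711, plus strand: ccaaatcctcaTCATGTGcccaccccaaac
Dct, chr14:118052379-118052408, minus strand: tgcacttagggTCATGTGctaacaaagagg
Slc24a5, chr2:125068103-125068132, minus strand: acttatgctgaaTCATGTGagcagtctcct
Read along the gene, the match began 22 bases before the start of Tyr, 142 before that of Trpm1, 151 before that of Dct, which held another at 232, and 13 before that of Slc24a5.

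Of 52 interferon-stimulated genes 8 rose (against 2.31% of all genes tested), 0 fell and the other 44 missed the threshold in untreated cells (median 0.31). These genes answer type I interferon, and many encode proteins that bind viral RNA. Isg15, a ubiquitin-like protein, was at 25.7, 20.6 and 20.2 in the VC libraries and 64.0, 52.6 and 49.5 in the Bub1KO libraries (log2 difference 1.28, SE 0.21, limma adjusted p = 0.0115). Ifi27, a mitochondrial membrane protein, was at 553, 529 and 566 in the VC libraries and 892, 906 and 1049 in the Bub1KO libraries (log2 difference 0.78, SE 0.10, limma adjusted p = 0.00437), the only member that passed with any 1 library left out. Mx1, Rsad2, Ddx58, Gbp2, Samd9l and Tor3a rose by 0.62 to 1.001 on the log2 scale. All untreated Bub1KO libraries were above all VC libraries in 25 of the 52 genes (12.7% of all genes tested). Genes that did not pass included Irf7 (2.21), Usp18 (1.49), Ifit1 (0.18) and Isg20 (-0.52). In the fit without Bub1KO replicate 1, 15 were higher and 3 lower, against 10.2% and 8.40% of all genes tested in that fit. Without any 1 of the others 1 to 6 were higher. The calls of Isg15, Mx1, Rsad2, Ddx58, Gbp2, Samd9l and Tor3a were lost with 1 library left out (largest limma adjusted p 0.119).

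Of the 5 called members with a promoter in the table, 4 held the interferon-stimulated response element, searched as GAAA, any 2 bases and GAAA on either strand (80%, against 3.35% of tested genes and 19 of 40 tested members). The sites of Isg15, Rsad2 and Gbp2 are given so that the repeated GAAA can be seen, in capitals as before. Isg15 held 3 overlapping matches, of which the one farthest from the start is shown.
Isg15, chr4:156200877-156200906, minus strand: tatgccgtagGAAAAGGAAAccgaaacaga
Rsad2, chr12:26456553-26456582, plus strand: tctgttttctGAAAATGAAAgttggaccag
Gbp2, chr3:142620594-142620623, minus strand: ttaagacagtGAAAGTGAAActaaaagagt
Read along the gene, these matches began 78, 120 and 59 bases before the starts of Isg15, Rsad2 and Gbp2.

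Stress granules, double-stranded RNA and viral mimicry stand in the title of the series. Over all genes tested, 2.31% were called higher and 1.71% lower, shares at which lists of this size hold few calls. Of 26 genes of double-stranded RNA sensing, editing and decay 1 rose, 0 fell and the other 25 missed the threshold without radiation, the riser being Ddx58, the RNA sensor RIG-I, which was at 92.0, 96.7 and 92.0 in the VC libraries and 156, 149 and 151 in the Bub1KO libraries (log2 difference 0.69, SE 0.13, limma adjusted p = 0.0219). It passed in 1 of the 6 fits with 1 library left out and not with the replicate block (largest limma adjusted p 0.119). Mavs, which relays its signal, was at 1175 ± 73.6 in VC and 975 ± 103 in Bub1KO (SD, n = 3), and the RNA-editing enzyme Adar at 1394 ± 61.1 in VC and 1413 ± 139 in Bub1KO (SD, n = 3). Of 29 stress granule protein genes 0 rose, 0 fell and the other 29 missed the threshold, and the median was -0.15 (by edgeR and DESeq2 0 and 1 passed). An unadjusted limma p under 0.05 was found for 8 of them, against 2817 of all 14721 genes tested. The log2 difference was below 0 in 24 and above 0 in 5. All Bub1KO libraries lay below all VC libraries in 10 (12.9% of all genes tested) and above them in 2 (12.7%). G3bp1, which nucleates the granules, was at 13075, 13206 and 13087 in the VC libraries and 10964, 11244 and 11273 in the Bub1KO libraries and did not pass (limma adjusted p = 0.138). In the fit without Bub1KO replicate 1, 3 of them were higher and 8 lower, against 10.2% and 8.40% of all genes tested in that fit. Of 10 genes of cytosolic DNA sensing 0 rose, 0 fell and the other 10 missed the threshold (1 with an unadjusted limma p under 0.05, 0 called by edgeR and 0 by DESeq2), with Cgas at -0.21 and Tmem173 (STING) at -0.20.

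Of 15 genes of MHC class I presentation 2 rose, 1 fell and the other 12 missed the threshold. H2-K1 was at 105, 78.7 and 117 in the VC libraries and 188, 147 and 197 in the Bub1KO libraries (limma adjusted p = 0.0471) and H2-T22 rose by 0.47, while H2-M3 fell. Counting may split reads among such similar H2 genes. B2m, their light chain, was at 4294 ± 227 in VC and 4740.4 ± 332 in Bub1KO (SD, n = 3). Of 12 checkpoint and killer-cell ligand genes 2 rose, 1 fell and the other 9 missed the threshold. Cd274, which encodes the T cell inhibitor PD-L1, was at 115, 108 and 103 in the VC libraries and 206, 161 and 179 in the Bub1KO libraries (log2 difference 0.73, SE 0.14, limma adjusted p = 0.0267), and the related Cd276 fell from 275, 273 and 299.9 to 174, 169 and 174 (limma adjusted p = 0.0106). The other riser was Raet1e, a ligand for killer cells (1.02). All 6 calls were lost without any 1 VC library (largest limma adjusted p 0.189). Both list counts stand beside 2.31% called higher and 1.71% called lower over all genes tested, shares at which lists of this size hold few calls.

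The partners of Bub1 gave no call, against 4.01% of all genes tested, a share at which lists of this size hold few calls. Of 30 checkpoint and kinetochore genes, 25 genes of mitotic entry and exit and 30 of the G1/S transition and DNA replication, 0 passed by limma, with medians of -0.017, -0.036 and -0.051 and unadjusted p under 0.05 in 1, 1 and 1 members. Bub1b, the related checkpoint protein BubR1, was at 5077, 5286 and 5749 in the VC libraries and 4946, 4830.4 and 4645 in the Bub1KO libraries (-0.16). Bub3, which carries both to kinetochores, was at 5805, 5467 and 5733 in the VC libraries and 4845, 5127 and 5404 in the Bub1KO libraries (-0.15). These small differences did not pass. The checkpoint kinase Ttk (-0.058), Knl1, the kinetochore scaffold that Bub1 docks on (-0.010), Sgo1 (0.16) and Aurkb (0.069) had log2 differences near 0. Cyclin B1 (Ccnb1) was at 3622 ± 209.8 in VC and 3451 ± 308 in Bub1KO (SD, n = 3), Mki67 at 15452 ± 398 in VC and 15131 ± 1784 in Bub1KO (SD, n = 3) and Top2a at 19928 ± 952 in VC and 21489 ± 2721 in Bub1KO (SD, n = 3). DESeq2 called 0, 0 and 1 member in the 3 lists and edgeR 0 in each. Without Bub1KO replicate 1 limma called 1, 2 and 3, against 18.6% of all genes tested in that fit.

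Of 38 genes of double-strand break repair 1 rose, Brca1, at 2643, 2819.7 and 2678 in the VC libraries and 4424, 4183 and 3922 in the Bub1KO libraries (log2 difference 0.62, SE 0.086, limma adjusted p = 0.00517), and it passed with any 1 library left out. A count of 1 in 38 is near the share of all genes tested that were called higher (2.31%). Of 29 p53 targets 2 rose, 5 fell and the other 22 missed the threshold. Eda2r, a receptor of the TNF family, rose 4.07-fold in mean, with a call lost without a filter (limma adjusted p = 0.0568), and Sesn2 is named above, whereas Zmat3, Aen, Btg2, Sulf2 and Ccng1 fell, all 5 with calls lost with 1 library left out (largest limma adjusted p 0.145). The inhibitor of cyclin-dependent kinases Cdkn1a was at 10265, 9736 and 11503 in the VC libraries and 9343, 7367 and 8113 in the Bub1KO libraries and did not pass (limma adjusted p = 0.128). With 1 library other than Bub1KO replicate 1 left out, 0 to 4 p53 targets fell, and 10 fell without that replicate. Of 26 BCL2 family, caspase and lytic death genes 1 rose, Bnip3, against 2.31% of all genes tested. Death genes such as Bax (-0.33), Bcl2l11 (-0.065), Hrk (1.26) and Casp4 (0.82) did not pass.

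Of 22 Nrf2 targets and redox genes 4 rose, 0 fell and the other 18 missed the threshold, with Mgst1, a microsomal glutathione transferase, at 595, 582 and 561 in the VC libraries and 1428, 1179 and 1363 in the Bub1KO libraries (log2 difference 1.19, SE 0.10, limma adjusted p = 0.000517) and Hmox1, heme oxygenase, at 2125, 1873 and 2111 in the VC libraries and 3132, 3906 and 3936 in the Bub1KO libraries (log2 difference 0.84, SE 0.11, limma adjusted p = 0.00468), the latter lost without a filter (limma adjusted p = 0.0698). Nqo1 and Gstm1 rose by 0.61 and 0.59, with calls lost without at least 1 VC library (largest limma adjusted p 0.0737), and Gclc (-0.23), Gclm (-0.25) and Txnrd1 (-0.17) did not pass. Of 26 adhesion and gap junction genes 3 rose, 3 fell and the other 20 missed the threshold. Mcam, a cell adhesion molecule named for melanoma, was at 8054, 8896 and 9096 in the VC libraries and 4637, 4397 and 4581 in the Bub1KO libraries (log2 difference -0.93, SE 0.085, limma adjusted p = 0.000637), and the integrin gene Itga9 rose (0.69). Of 35 axon guidance genes 2 rose, 4 fell and the other 29 missed the threshold, of which Sema6d (1.27) and Plxnc1 (0.82) rose, both lost without a filter (largest limma adjusted p 0.107). Among 16 immediate-early factors Atf3 and the nuclear receptor Nr4a3 (467, 441 and 452 in the VC libraries and 1026, 1042 and 969 in the Bub1KO libraries) rose and 0 fell. Of 23 Wnt and Notch genes 1 rose, 2 fell and the other 20 missed the threshold, the riser being the secreted Dkk3 (0.73). These list counts stand beside 2.31% called higher and 1.71% called lower over all genes tested.

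Lysosome genes had 3 risers (Neu1 and Atp6v0d1 among them) of 30. They grew to 13 without Bub1KO replicate 1, a fit in which 10.2% of all genes tested were higher, and fell to 0 without any 1 of the others. Of 35 cholesterol and fatty acid genes 2 rose, 2 fell and the other 31 missed the threshold, led by Mgll, the lipase that frees fatty acids from monoacylglycerol, at 229, 178 and 232 in the VC libraries and 767, 1178 and 1206 in the Bub1KO libraries (log2 difference 2.28, SE 0.19, limma adjusted p = 0.000485). In the cyclic nucleotide list 1 of 27 rose, the phosphodiesterase gene Pde1b (10.8, 6.45 and 11.3 in the VC libraries and 59.97, 54.3 and 47.4 in the Bub1KO libraries), and 4 fell, among them its relative Pde1a (35 reads in VC and 2 in Bub1KO, ratio 19.9, 95% exact interval 5.10 to 170.4, counting error only), whose call was lost without VC replicate 2 or 3 (largest limma adjusted p 0.118). The NF-kB and chemokine list of 23 held Tnfaip2 higher (0.996) and Cx3cl1 lower (-1.70), both lost without a filter. The Cx3cl1 call was also lost with the replicate block and without any 1 VC library (largest limma adjusted p 0.221). Of 24 genes of DNA methylation and retroelement silencing 1 rose, Kdm5b (0.49), which passed in 1 of the 6 fits with 1 library left out (largest limma adjusted p 0.18). Of the 7 mitochondrial mRNAs 0 passed by limma (1 at an unadjusted p under 0.05), 0 by edgeR and 0 by DESeq2. With all 6 untreated libraries 2.31% of all genes tested were called higher and 1.71% lower. A list with 1 or 2 calls in this paragraph is therefore not set apart by its count.

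**Figure D3:**
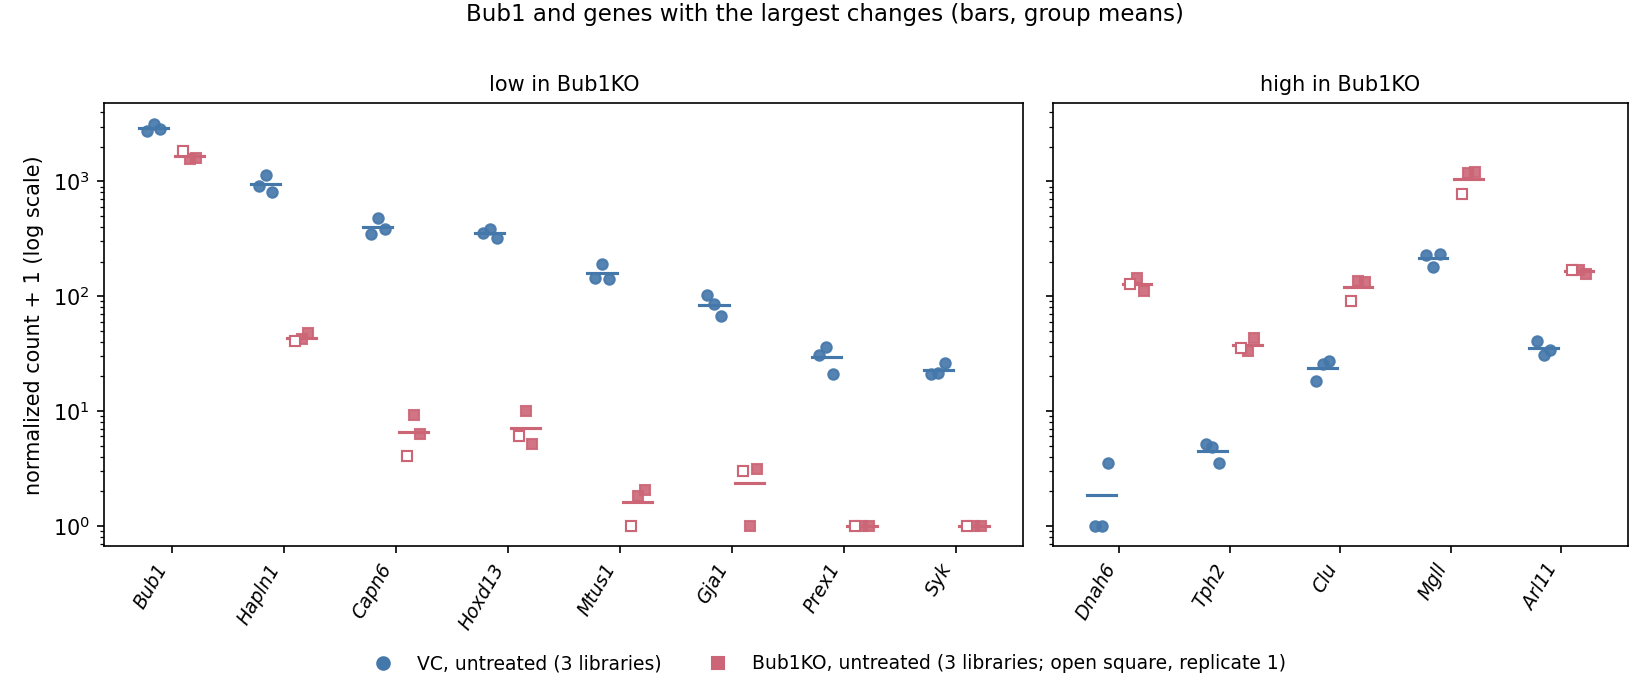
Normalized count plus 1 on a log axis for Bub1 and the genes with the largest changes, 1 marker per untreated library (blue circles, VC; red squares, Bub1KO, with replicate 1 as an open square), bars at the group means. Prex1 and Syk have 0 reads in all 3 Bub1KO libraries, and Dnah6 has 2 reads in the VC libraries together.

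Some genes were switched between detected and near 0 from one line to the other. Syk, a tyrosine kinase of immune receptor signalling, was at 19.9, 20.6 and 25.2 in VC and 0 in all 3 Bub1KO libraries, at least 22.7-fold lower (against 3 reads over the group; limma adjusted p = 0.000517). Prex1, an activator of the small GTPase Rac, was at 29.8, 34.8 and 20.2 in VC and 0 in all 3, at least 29.9-fold lower (limma adjusted p = 0.000485). Mtus1, a microtubule-binding tumour suppressor gene, had 429 reads in VC and 2 in Bub1KO (ratio 243, 95% exact interval 67.0 to 2016, counting error only). The gap junction gene Gja1 had 239 and 4 (ratio 67.8, interval 26.1 to 251). Hoxd13, a transcription factor of the distal limb, was at 357, 381 and 320.0 in the VC libraries and 5.08, 9.05 and 4.21 in the Bub1KO libraries (log2 difference -5.69, SE 0.26, limma adjusted p = 2.15e-05), and Hoxa11 at 430.2, 441 and 444 in the VC libraries and 163, 175 and 168 in the Bub1KO libraries (log2 difference -1.37, SE 0.11, limma adjusted p = 0.000477). These were 2 of 19 tested Hox genes, and 17 did not pass. Hapln1, which links hyaluronan to proteoglycans, was at 912, 1134 and 814 in the VC libraries and 39.6, 41.1 and 46.3 in the Bub1KO libraries, Capn6 at 347, 479 and 381 in the VC libraries and 3.05, 8.23 and 5.27 in the Bub1KO libraries and the signalling modulator Shisa2 at 95.3, 103 and 117 in the VC libraries and 11.2, 12.3 and 8.42 in the Bub1KO libraries.

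In the other direction Dnah6, a heavy chain of the axonemal dynein motor, had 2 reads over the VC libraries and 402 over the Bub1KO libraries (ratio 177, 95% exact interval 48.7 to 1468, counting error only). Dnah7b also rose (0.77) and Dnah8 fell (-1.14), both lost without a filter. The Dnah8 call was also lost by DESeq2, with the replicate block and without any 1 library other than Bub1KO replicate 1 (largest adjusted p of limma and DESeq2 0.145). Of 16 tested motile cilium genes 13, Foxj1 (-0.74) among them, did not pass. Dnah7b has near-identical copies between which reads may be split. Tph2, the first enzyme of serotonin synthesis in neurons, was at 4.14, 3.87 and 2.52 in the VC libraries and 34.6, 32.1 and 42.1 in the Bub1KO libraries, and Clu (clusterin), an extracellular chaperone, at 17.4, 24.5 and 26.5 in the VC libraries and 90.5, 133 and 133 in the Bub1KO libraries. Arl11, a small GTPase, was at 39.8, 29.7 and 32.8 in the VC libraries and 167, 169 and 156 in the Bub1KO libraries (log2 difference 2.24, SE 0.17, limma adjusted p = 0.000348). The rises were seen in each Bub1KO library. To see whether whole regions moved, the 2 nearest tested genes on each side of 12 named genes with group means over 10-fold apart were read, and 1 of these 48 neighbours was called, Sulf2 beside Prex1, against 4.01% of all genes tested. The 4 nearest neighbours of Bub1 were not called. On the 20 nuclear chromosomes the median log2 difference lay between -0.062 and 0.036 and the share of genes called between 2.47% (chromosome 5) and 5.81% (chromosome 12).

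The irradiated libraries, which the comparison above did not use, gave the same contrast a second time. After 8 Gy 4512 genes differed between the lines (30.7% of those tested), 2104 higher (14.3%) and 2408 lower (16.4%). Of the 340 genes higher in untreated Bub1KO, 251 were also called higher there (73.8% of the 340 and 11.9% of the 2104), and 7 were called lower. Of the 251 lower genes 196 were again lower (78.1% of the 251 and 8.14% of the 2408), and 0 were higher. The median log2 difference of the higher genes was 0.82 without radiation and 0.49 after it, and that of the lower genes -0.76 and -0.53. Both sets were chosen by the untreated libraries, so smaller medians in the irradiated libraries can follow from that choice alone. A difference of the differences (interaction) was called for 81 genes (0.550%), 42 of them among the 340 and 9 among the 251. That count was 1447 without untreated Bub1KO replicate 1, 86 without untreated Bub1KO replicate 3, and 33 to 60 without any 1 of the other 10 libraries. The interaction reused the untreated libraries that chose the 340 and 251 genes, so its counts among them are favoured by that choice. The time between irradiation and RNA extraction is not given in the sources used here.

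In many genes of the Atf4 response the Bub1KO excess was smaller or absent after 8 Gy. Of 17 regulators 11 had an interaction below 0 (against 0.414% of all genes tested in that direction), as did 9 of 20 amino acid enzymes and 5 of 20 tRNA synthetases. Trib3 was at 887, 1049 and 871 in VC and 1272, 798 and 784 in Bub1KO once irradiated. Its irradiated VC libraries were above the untreated VC libraries and its irradiated Bub1KO libraries below the untreated Bub1KO ones, so the lines overlapped (interaction -2.98, limma adjusted p = 0.00119). Chac1 was at 470.0, 529 and 455 in VC and 550.0, 387 and 386 in Bub1KO once irradiated (interaction -2.94, limma adjusted p = 0.00119). The irradiated groups overlapped for Chac1 too. Asns was at 4592, 4702 and 4583 in VC and 4718, 4450.3 and 4376 in Bub1KO once irradiated (interaction -1.01, limma adjusted p = 0.000754). The 7 genes that were higher without radiation and lower after it were Mthfd2, Aldh1l2, Tars, Pycr1, Atf3, Jdp2 and Uhrf1bp1, the last in no list and singled out by its values.

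Of the 8 ERK genes lower without radiation, 8 were called lower after it. Dusp6 was at 1601, 1809 and 1897 in VC and 1312, 1062 and 1189 in Bub1KO once irradiated, and Etv5 at 698, 753 and 779 in VC and 377, 335 and 363 in Bub1KO once irradiated, where its deficit was smaller (interaction 1.46, limma adjusted p = 0.012). Of the 9 lower YAP and contractile genes 8 were lower again, and all 9 higher low-oxygen genes were higher again. Car9 was at 203, 195 and 189 in VC and 844, 856 and 967 in Bub1KO once irradiated. Of 6 higher pigment genes 5 were higher again, with Tyr at 1682, 1711 and 1583 in VC and 4338, 4435 and 5109 in Bub1KO once irradiated. Rab27a was the exception, with a smaller difference after radiation (0.14; interaction -0.54, limma adjusted p = 0.014). All 8 interferon-stimulated genes that rose without radiation were higher after it, as were 47 of 52 (against 14.3% of all genes tested), and the interaction called 1 of the 52.

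**Figure D4:**
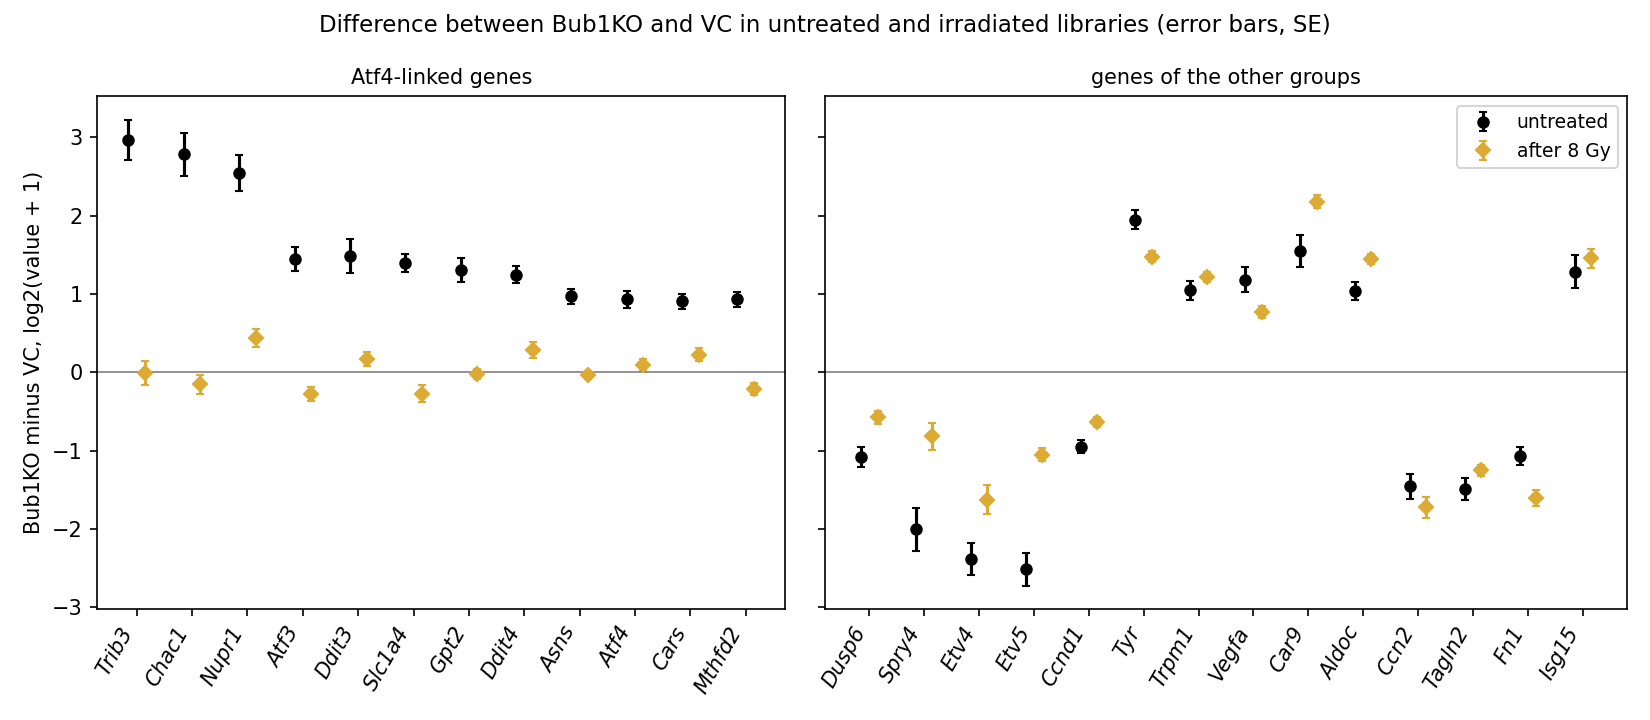
Bub1KO minus VC difference on the log2(normalized count + 1) scale without radiation (black circles) and after 8 Gy (yellow diamonds) for Atf4-linked genes (left) and genes of the other groups (right), error bars 1 SE from limma, 3 libraries per group. The Atf4-linked genes lie between 0.90 and 2.97 without radiation and between -0.28 and 0.44 after it, whereas each gene on the right stays on its side of 0. All genes shown were called without radiation, a choice that favours larger untreated differences.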

How the data were processed

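RNA-seq of B16F10 cells was read from 2 deposited tables of 55421 genes. Per the submitters' processing notes Trim Galore, cutadapt, STAR, SAMtools and HTSeq were used with GRCm38.p6 (mm10). No version, strand setting or treatment of reads with several positions is given in the sources used here, so overlapping, antisense and near-identical genes are less certain. The authors deposited a signal: per the file headers and values, reads of each gene divided by 1 size factor per library, shared by both tables. Whole reads were recovered for 100% of values above 0 in the untreated libraries (tolerance 0.01 of a read). The deposited fold changes and p-values were not used.

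The test was limma-trend (limma 3.58.1, R 4.3.3) on log2(value + 1) of the 6 untreated libraries, for genes with a value of 10 or more in 3 or more of 12 libraries, with Benjamini-Hochberg adjustment over all 14721 and a threshold of 0.05. Fold changes of low genes are understated on this scale. A ratio called a fold in mean is one of group means. The same fit was made on the irradiated libraries, and an interaction on all 12. edgeR (4.0.16) and DESeq2 (1.42.0) on recovered reads called 642 and 852 genes. Alternatives were other filters, pseudocount 5, TMM scaling, array weights, GC trends removed, a replicate block, all 12 libraries, and leaving out each library. An exact permutation test of 3 against 3 cannot go below p = 0.1. Positions came from GENCODE M21, which matched 55240 identifiers, and promoters from RefSeq. Genes were named by a rule: Bub1, 21 fixed readouts, the 15 largest protein-coding rises and falls, and up to 4 called members of each list. Other members named are description, and some members are not reported here by name. Gene lists and members were chosen with earlier results of these data known.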

Additional observations from a re-analysis of the deposited data

Results flagged for a closer look

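For 26 named genes the difference between Bub1KO and VC was not the same with and without radiation, by a test of that difference in all 12 libraries (limma interaction, adjusted p from 0.000754 to 0.0416). The values here are the log2 difference after 8 Gy minus that without it. Most named genes were chosen by their untreated values, which the interaction also used. That choice favours shifts towards 0, and its part in these values was not tested.

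Genes of the Atf4 response, amino acid supply and tRNA charging made up 16 of them, and with Herpud1 of the unfolded-protein list all were higher in untreated Bub1KO and shifted down after radiation. Of these, Mthfd2, Atf3 and Tars were called lower in Bub1KO after 8 Gy. The change was -2.98 for Trib3, -2.94 for Chac1, -2.11 for Nupr1, -1.72 for Atf3 and -1.67 for Slc1a4. It was -1.33 for Gpt2, -1.31 for Ddit3, -1.27 for Sesn2, -1.15 for Mthfd2, -1.01 for Asns and -0.97 for Herpud1. For Aldh18a1, Ddit4, Tars, Atf4, Cars and Nars it was -0.97, -0.96, -0.86, -0.84, -0.68 and -0.57. Ddit4 was at 1469, 1531 and 1342 in VC and 2144, 1676 and 1530.5 in Bub1KO once irradiated, and Nupr1 at 533, 415 and 473 in VC and 776, 584 and 572 in Bub1KO once irradiated.

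A smaller excess was also found for Brd3os (-1.85), the heparan sulfate enzyme gene Hs3st1 (-1.73), Arl11 (-1.54), Nr4a3 (-0.79) and Rab27a (-0.54). A smaller deficit was found for Etv5 (1.46), Adam12 (1.21), Hoxa11 (0.89) and Adamts1 (0.64), which were lower in Bub1KO in both conditions. Adam12 was at 639.9, 773 and 736 in the VC libraries and 122, 137 and 117 in the Bub1KO libraries without radiation and at 437, 499 and 479 in VC and 185, 174 and 219.5 in Bub1KO once irradiated. Causes of these changes were not tested.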

How the results depend on the processing

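The count of 591 genes was 1539 with the GC trend of each library removed, 1152 with that and the replicate block, 1769 with all 12 libraries in the fit, 3537 with array weights, which give replicates that vary more less weight, 329 without a filter and 172 to 2736 with 1 library left out (2736 without Bub1KO replicate 1). It moved by less than 1.5 times with pseudocount 5, a filter of 50, TMM scaling, edgeR and DESeq2. The 447 genes called the same way after 8 Gy became 1002, 764, 828, 1903 and 152 in the first 5 of those settings, and 147 to 1290 with 1 library left out. The 81 genes of the interaction became 269 with DESeq2, 350 with GC trends removed, 256 with that and the block, 1463 with array weights and 33 to 1447 with 1 library left out. The causes were not tested. Removing GC trends can also take away real change tied to GC content.

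Same-numbered VC and Bub1KO libraries had correlations of -0.19 to 0.046 between their deviations, and differently numbered ones -0.15 to 0.15. Deviations within groups of 3 depend on each other, so these values cannot show whether replicate numbers mark a shared batch. With the replicate block the 3 counts were 312, 255 and 47.

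Of 121 named genes called, 54 were called under every alternative and 0 changed sign. Signs changed for 10 genes that were not called. With 1 library left out the log2 difference ran over -0.040 to 0.10 for Adar, -0.036 to 0.18 for Banf1, -0.018 to 0.14 for Birc5, -0.19 to 0.021 for Eif2ak2, -0.13 to 0.020 for Mki67, -0.078 to 0.30 for Phgdh, -0.13 to 0.011 for Rrm2, -0.073 to 0.39 for Sox10, -0.037 to 0.092 for mt-Co1 and -0.10 to 0.014 for mt-Cytb. With array weights that of mt-Co1 was -0.027, and with GC trends removed, with or without the block, that of mt-Cytb was 0.043. Depth limits genes at a few reads, whose ratios carry wide intervals.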

Other observations

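Genes outside the lists also differed between the untreated lines, all named here after their values were seen and each called with any 1 library left out. Ccdc134, which encodes a secreted protein, was at 1289.7, 1199.6 and 1377 in the VC libraries and 354, 399 and 385 in the Bub1KO libraries (log2 difference -1.76, SE 0.10, limma adjusted p = 6.9e-05). Mest, an imprinted gene of growth and fat tissue, was at 1305, 1389 and 1336 in the VC libraries and 588, 439 and 392 in the Bub1KO libraries (log2 difference -1.52, SE 0.15, limma adjusted p = 0.000847), and Akap12, a scaffold for protein kinase A, at 1022, 1121 and 1131 in the VC libraries and 421, 395 and 369 in the Bub1KO libraries (log2 difference -1.47, SE 0.10, limma adjusted p = 0.000219). Hmga2, a chromatin protein of fetal and tumour cells, was at 1378, 1429 and 1394 in the VC libraries and 862, 605 and 609.7 in the Bub1KO libraries, the insulin receptor substrate gene Irs1 at 395, 464 and 383 in the VC libraries and 174, 176 and 162 in the Bub1KO libraries, and the cell cycle kinase gene Cdk6 at 1079, 1122 and 1110.1 in the VC libraries and 704, 578 and 518 in the Bub1KO libraries. In these 6 genes no Bub1KO library reached the VC range, and all 6 were called lower after 8 Gy as well.

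Among genes that rose, the gap junction gene Gjb2 was at 2279, 2066 and 2303 in the VC libraries and 6118, 5302 and 4835 in the Bub1KO libraries (log2 difference 1.28, SE 0.11, limma adjusted p = 0.000485), the opposite direction to Gja1. Sparcl1, a secreted relative of Sparc, was at 1060.1, 1113 and 1079.8 in the VC libraries and 2339.8, 2338 and 2279 in the Bub1KO libraries (log2 difference 1.10, SE 0.082, limma adjusted p = 0.000348), whereas Sparc itself fell (-0.54, limma adjusted p = 0.0274, and up to 0.124 with 1 library left out). Hpse, the enzyme that cuts heparan sulfate, was at 256, 266 and 199 in the VC libraries and 794, 545 and 583 in the Bub1KO libraries (log2 difference 1.40, SE 0.17, limma adjusted p = 0.00289), and Pltp, which moves phospholipids between lipoproteins, at 104, 129 and 123 in the VC libraries and 298, 560.2 and 428 in the Bub1KO libraries (log2 difference 1.80, SE 0.22, limma adjusted p = 0.00261). The glutathione transferase gene Gsta2 was at 41.4, 32.2 and 35.3 in the VC libraries and 173, 91.3 and 139 in the Bub1KO libraries, with reads that its close copies may share. Nnmt, which methylates nicotinamide, was at 482, 448 and 548 in the VC libraries and 1181, 1213 and 1085 in the Bub1KO libraries without radiation and at 1150.5, 1143 and 1098 in VC and 1168, 1203 and 1193 in Bub1KO once irradiated (interaction -1.16, limma adjusted p = 0.000754). Adh7, an alcohol and retinol dehydrogenase, showed a like pattern, with log2 differences of 1.36 and 0.19 (interaction -1.17, limma adjusted p = 0.00223).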
